A study of Mus musculus with 2 samples.

Results

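The ubiquitin enzymes and proteasome subunits of cultured mouse mast cells were compared between a wild type (WT) library and a library from cells lacking Tet2 (Tet2-/-). The members were all rows of the deposited expression table whose symbol begins with Psma to Psmg, Ube2, Ube3 or Otu, or with Usp, Trim, Rnf, Fbxo, Fbxl, Fbxw or Cul and a digit, and they number 77 of 8139 symbols. Both groups were mast cells grown from the femoral bone marrow of C57BL/6 mice for 4 to 6 weeks with 10% serum, interleukin-3 at 10 ng/ml and stem cell factor at 5 ng/ml. The cells were described as more than 97.5% positive for the high-affinity IgE receptor and c-Kit. The groups differ in genotype, wild type against Tet2-/-, and the labels do not say how the allele was made, the age of the mice or how many mice gave cells. As each genotype has 1 library, no difference could be set against a spread between replicates, and no test was made. The values are RPKM, which allow for gene length and library size, so levels can be compared between genes.

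Ubiquitin is a small protein that is joined to other proteins by a relay of enzymes. An activating enzyme (E1) passes it to a conjugating enzyme (E2), and a ligase (E3) brings the E2 to the substrate. The RNF and TRIM proteins are mostly RING ligases, which position the E2, whereas HECT ligases such as Ube3b carry ubiquitin themselves before handing it on. Cullins are scaffolds on which substrate receptors such as the F-box proteins are mounted, and the USP and OTU proteases take ubiquitin off again. Proteins marked with certain ubiquitin chains are degraded by the proteasome, whose barrel-shaped 20S core is opened by the 19S regulatory particle. The product of Tet2 oxidises methylated cytosine, which in DNA lies chiefly where C is followed by G.

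The level of Tet2 itself, whose symbol is not listed, was not analysed here, and the labels were therefore not checked by it. Of 13 mast cell markers 5 were listed, with a summed level of 3024 RPKM for WT and 3118 for Tet2-/-, while Kit, Fcer1a and Ms4a2 were not analysed here. The sum covers unequal differences. Fcer1g and Slc18a2 were lower in Tet2-/-, with ratios of 0.736 (0.714 to 0.760) and 0.859 (0.849 to 0.869). Gzmb and Mcpt8 were higher, with ratios of 1.13 (1.12 to 1.14) and 2.91 (2.72 to 3.11), and the interval of Mitf held 1. Mcpt8, at 56.1 RPKM for WT and 163 for Tet2-/-, is also used as a marker of basophils, so the sum is not of mast cell genes alone. The bracketed ranges are 95% counting intervals. The listed macrophage and monocyte markers, 6 of 10, had a summed level of 2.02 in the WT library and 31.6 RPKM in the Tet2-/- library, and each had a counting interval above 1. The neutrophil markers, 3 of 6, summed to 1.12 and 10.1 RPKM, with Csf3r listed at 0.01 in both libraries and Mpo at 0.01 in WT. The eosinophil markers, 2 of 4, summed to 0.829 and 2.27 RPKM, and the listed lymphocyte marker, 1 of 3, was at 0.0250 and 0.147 RPKM. The neutrophil sum was mostly Ly6g, at 1.10 RPKM for WT and 9.61 for Tet2-/-, which had no interval, and that of Mpo lay above 1. Of the eosinophil markers, Ear2 had an interval above 1 and that of Il5ra held 1. The listed macrophage and monocyte markers, and some genes of the neutrophil and eosinophil lists, therefore stood higher in the Tet2-/- library. The part of these markers in the differences between the members was not tested. In bulk RNA, fewer cells of a type and less RNA per cell cannot be told apart. From the steps between low values, the depth was inferred as 31000000 fragments for WT and 32000000 for Tet2-/-.

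Of the 77 members, 49 had a mean of at least 1 RPKM over both libraries and 28 did not. None of the 49 was higher or lower by 2-fold or more on the log2(RPKM + 1) scale, where 2.9% of 2107 models of the table were higher and 1.61% lower. At 1.5-fold, 2 members were higher in Tet2-/-, Trim47 and Trim5, and 1 was lower, Fbxl21. These are 4.08% and 2.04% of the members, beside 5.84% and 3.61% of all models, shares that are close to the background. The members' median log2 fold was -0.02, and that of all models was 0.01. Within 1.25-fold lay 44 of the 49 members, 89.8%, beside 79.4% of all models. Above a mean of 10 RPKM, the share was 92.5% of 40 members and 85.5% of 1264 models of any kind, a smaller gap than that to all models.

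Counting error alone is narrow at these depths. A 95% interval of the ratio between the libraries, exact for the number of fragments, lay above 1 for 13 members and below 1 for 15, and held 1 for 21. That is 26.5% and 30.6% of the members, beside 27.0% and 23.5% of the 1924 models with an interval. An interval is narrower where a gene has more fragments, and the shares given here and below were not matched for that. The interval covers counting error only, not the spread between cultures or mice, so an interval beyond 1 says only that these 2 libraries differ. Of the 49 members, 24 share exon bases with another annotated gene or hold a close copy of a stretch of its transcript, and their values may include reads of that gene.

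The promoters of the 3 members beyond 1.5-fold are shown because Tet2 acts on CG pairs and these genes differ in how many they hold. Each sequence is the 250 bases before the RefSeq start, 5′ to 3′ on the strand of the gene, build GRCm38.p6. They are chr11:116110236-116110485 on the minus strand for Trim47, chr13:56522222-56522471 on the plus strand for Fbxl21 and chr7:104288107-104288356 on the minus strand for Trim5. Capitals mark CG pairs in Trim47 and Fbxl21. In Trim5 they mark a match, read on the opposite strand, to GAAA, any pair of bases and GAAA, the core of the interferon-stimulated response element.
Trim47: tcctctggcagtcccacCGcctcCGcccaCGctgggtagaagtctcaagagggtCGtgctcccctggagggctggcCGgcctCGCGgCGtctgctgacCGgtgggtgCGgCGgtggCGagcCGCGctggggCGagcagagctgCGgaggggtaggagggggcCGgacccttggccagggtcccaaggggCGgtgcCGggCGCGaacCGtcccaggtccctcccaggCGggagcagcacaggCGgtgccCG
Fbxl21: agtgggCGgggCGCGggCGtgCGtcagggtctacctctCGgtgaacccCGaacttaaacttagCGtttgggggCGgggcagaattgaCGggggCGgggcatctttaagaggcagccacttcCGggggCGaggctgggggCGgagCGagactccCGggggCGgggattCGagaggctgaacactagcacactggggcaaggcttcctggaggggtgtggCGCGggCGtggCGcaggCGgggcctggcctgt
Trim5: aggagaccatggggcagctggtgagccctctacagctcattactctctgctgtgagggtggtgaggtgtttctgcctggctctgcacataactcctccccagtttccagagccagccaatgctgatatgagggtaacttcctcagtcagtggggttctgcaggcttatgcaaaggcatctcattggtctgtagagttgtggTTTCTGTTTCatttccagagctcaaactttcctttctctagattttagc
The stretch shown holds 25 CG pairs in Trim47, 23 in Fbxl21 and 0 in Trim5. The gene that was lower in Tet2-/- and one of those that were higher thus both have promoters rich in CG pairs, and the other higher gene does not.

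The same count was made for every member with a RefSeq promoter window of 300 bases, 250 before the start and 50 after it, taking the richest window of a gene. Of the 77 members, 57 had one. The 37 members with a mean of at least 1 RPKM had a median of 25 CG pairs, ranging from 1 in Trim5 to 51 in Usp6nl. The 1484 listed genes at that level had a median of 23. The 20 members below 1 RPKM had a median of 5.5, and 27018 genes with a window had a median of 8. The median of detected members was thus near that of other detected genes. That of members with little or no RNA was lower, although these ranged from 0 to 40 in Fbxo10 and overlapped with the detected members. This interferon core, sought on both strands, was in the windows of 3 of the 37 detected members, Trim5, Rnf121 and Rnf146, which is 8.11% beside 5.12% of listed genes at that level and 3.99% of all genes. The letters TGACNNNGC, also sought on both strands, the core of the antioxidant response element through which Nfe2l1 and Nfe2l2 act on proteasome genes, was in the window of 1 of 7 proteasome members, Psmc6, which is 14.3% beside 17.3% of listed genes at that level and 13.99% of all genes. Both are matches of letters, not tested sites, and no member's windows held both motifs.

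**Figure D1:**
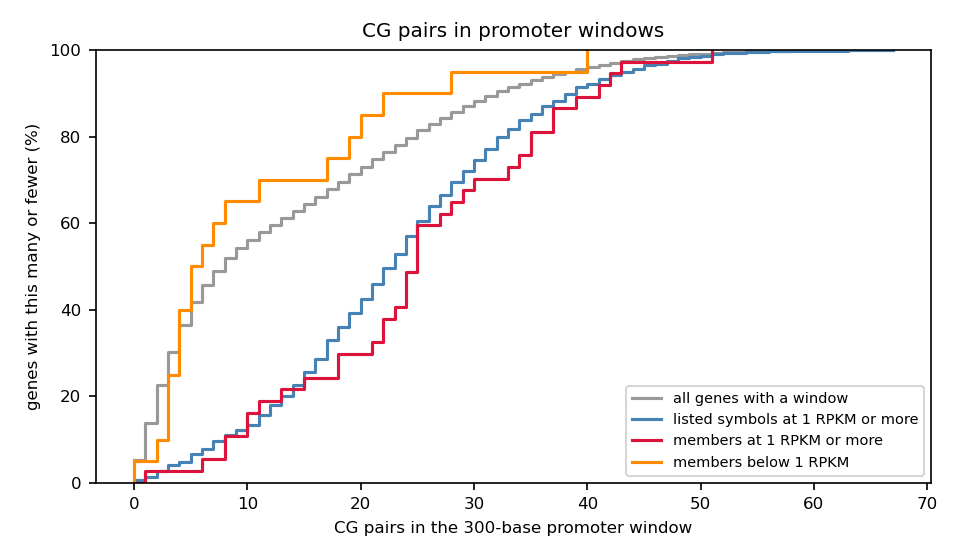
Cumulative share of genes (y axis, %) by the number of CG pairs in the richest 300-base promoter window (x axis). The 37 members with a mean of at least 1 RPKM, median 25, run near the 1484 listed genes at that level, median 23, and the 20 members below 1 RPKM, median 5.5, lie to the left of them.

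As a class, the proteasome members, which include an activator, an inhibitor and an assembly chaperone, had a higher median level than the other members. They differed little between the libraries. The 9 proteasome members past 1 RPKM had a median of 66.3 RPKM for WT and 65.4 for Tet2-/-, beside 18.3 and 17.3 RPKM for the other 40 members. Their summed level was 625 in the WT library and 643 RPKM in the Tet2-/- library, a ratio of 1.03, beside 1.09 for all models. Their median log2 fold was -0.01, and 4 were on the higher side in Tet2-/- and 5 on the lower. All 9 lay within 1.25-fold, as did 85.5% of all models with a mean above 10 RPKM. Intervals lay above 1 for 4 and below 1 for 2, which is 44.4% and 22.2%, beside 27.0% and 23.5% of all models.

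Of the 20S core, Psma3 was the one member past 1 RPKM. It encodes a subunit of the outer alpha ring and was at 123 RPKM for WT and 144 for Tet2-/-, a ratio of 1.17 (1.11 to 1.23). It had the highest level of all members in both libraries. Transcripts of 3 annotated pseudogenes hold a stretch of at least 95% identity to Psma3, the longest of 772 bases, so reads may have been shared with them. Psma8 encodes the alpha subunit that takes the place of Psma7 in the testis. It lay below the filter, at 1.52 in the WT library and 0.248 RPKM in the Tet2-/- library, with WT over Tet2-/- at 6.13 (2.58 to 15.4) on an estimated 40 and 7 fragments. This was the widest ratio among the members with a value in both libraries, and it rests on the fewest fragments of those with an interval beyond 1. Psmb6-ps2, an annotated processed pseudogene that the rule took, was listed at 0.01 in both.

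The 19S particle has a ring of ATPases that unfold the substrate, and of these Psmc3, Psmc6 and Psmc2 were listed. Psmc3 was at 119 RPKM for WT and 110 for Tet2-/-, a ratio of 0.922 (0.884 to 0.961). Psmc6 was at 75.3 and 81.5 RPKM, with a Tet2-/- over WT ratio of 1.08 (1.04 to 1.13). Psmc2 was at 65.7 and 65.4 RPKM, with an interval that held 1. The ATPases, which enter the ring in equal numbers, thus went to either side by less than 10%, and in both libraries Psmc3 was the highest and Psmc2 the lowest. Psmc3 shares 215 exon bases with Slc39a13 on the opposite strand.

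Of the non-ATPase subunits, Psmd2, the large scaffold that binds ubiquitin receptors, was at 94.9 in the WT library and 99.3 RPKM in the Tet2-/- library, a ratio of 1.05 (1.02 to 1.08). Psmd3, a structural subunit of the lid, was at 45.3 and 43.9 RPKM, with an interval that held 1. Psmd10, or gankyrin, a chaperone that helps to assemble the ATPase ring, was at 20.8 and 24.1 RPKM, the ratio being 1.16 (1.05 to 1.28). The subunits of the finished particle were above the assembly chaperone in each library. Psme3, which forms a nuclear activator of the core, was at 66.3 RPKM for WT and 61.5 for Tet2-/-, a ratio of 0.927 (0.891 to 0.965). Psmf1, an inhibitor and assembly factor of the core, was at 14.3 and 12.9 RPKM with an interval that held 1. The interferon-induced core subunits Psmb8, Psmb9 and Psmb10 and the activators Psme1 and Psme2 were not analysed here.

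**Figure D2:**
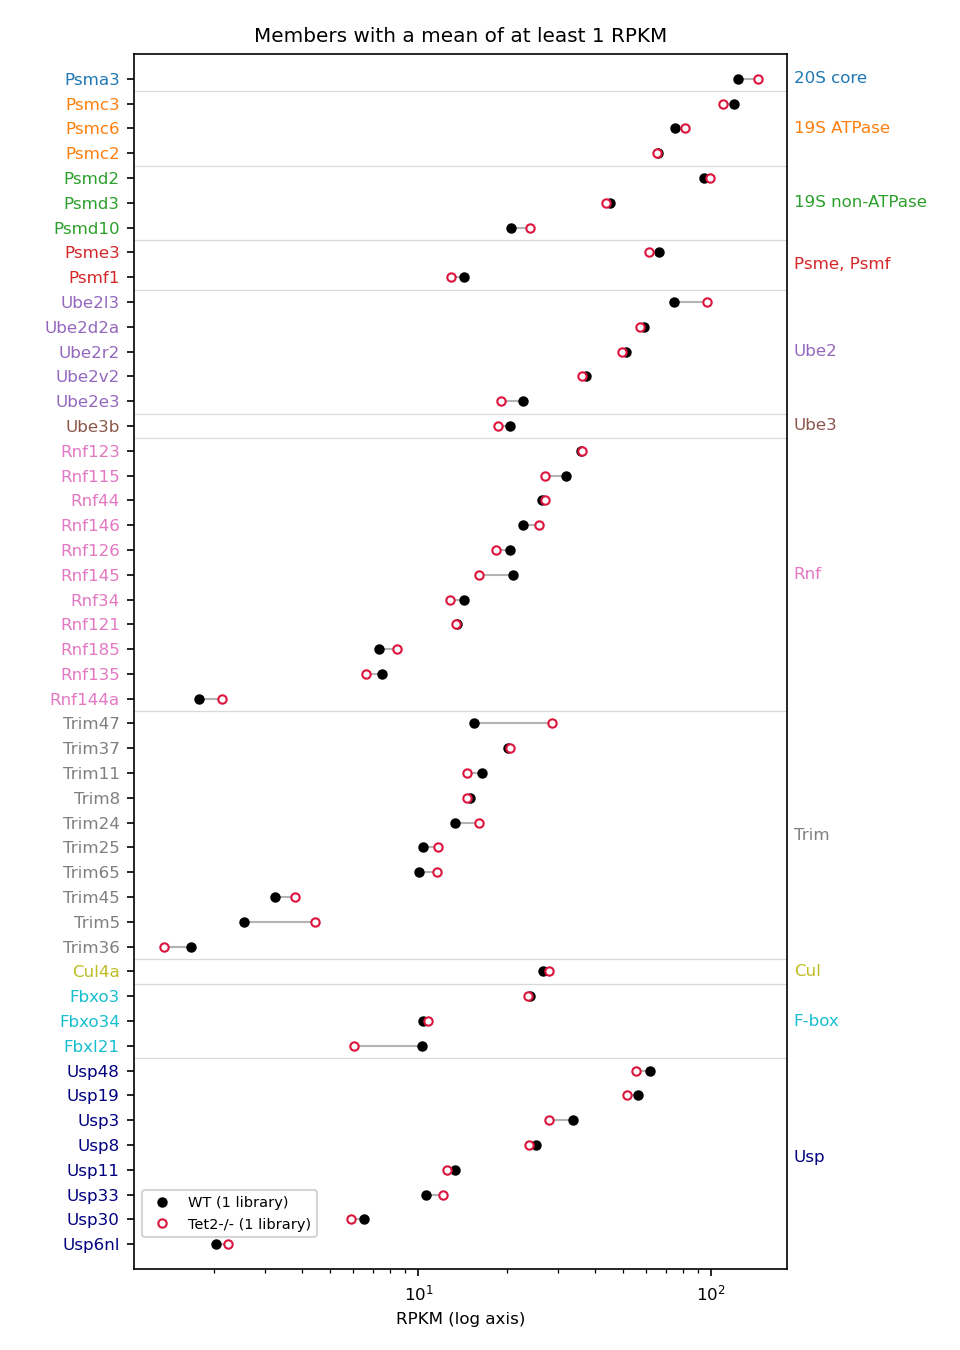
Level of 48 of the 49 members with a mean of at least 1 RPKM (x axis, RPKM, log axis) in WT (filled) and Tet2-/- (open), 1 library each, ordered by role and then by mean. Proteasome members, among them the inhibitor gene Psmf1, lie between 12.9 and 144 RPKM, and the pairs of points stand apart for Trim47, Trim5 and Fbxl21.

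Among the E2 enzymes, 5 members passed 1 RPKM, with a median log2 fold of -0.04. Ube2l3, which serves HECT and RBR ligases, was the most abundant and differed most, at 74.4 in the WT library and 96.5 RPKM in the Tet2-/- library, a ratio of 1.30 (1.20 to 1.41). Ube2l3 shares 1670 exon bases with Ydjc on the opposite strand, and 10 pseudogene transcripts hold close stretches of it, so its value may include reads of others. The other E2 genes were on the lower side. Ube2d2a, a broadly used E2, was at 58.8 and 57.3 RPKM, and Ube2r2, a relative of Cdc34 that works with cullin ligases, at 51.0 and 49.7 RPKM. Ube2v2, an inactive E2 variant that pairs with Ube2n, was at 37.4 and 36.1 RPKM. The intervals of Ube2d2a, Ube2r2 and Ube2v2 held 1. Ube2e3 was at 22.7 RPKM for WT and 19.2 for Tet2-/-, a ratio of 0.844 (0.759 to 0.939). Ube2cbp, which despite its symbol encodes an E2-binding ligase, was below the filter at 0.674 and 0.621 RPKM. The HECT ligase gene Ube3b was at 20.6 and 18.7 RPKM, the ratio being 0.910 (0.865 to 0.956).

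Of 19 RNF genes, 12 passed 1 RPKM, none reached 1.5-fold, and their median log2 fold was -0.01. Of the 12 intervals, 3 lay above 1 and 4 below 1, beside 27.0% and 23.5% of all models. The most abundant was Rnf123, a subunit of a ligase for the cell cycle inhibitor p27, at 35.9 in the WT library and 36.2 RPKM in the Tet2-/- library, with an interval that held 1. The lowest in fold of those past 1 RPKM was Rnf145, a sterol-responsive ligase of the endoplasmic reticulum, at 20.97 and 16.2 RPKM, the ratio being 0.771 (0.724 to 0.821). It was the RNF gene outside 1.25-fold. Rnf115 was at 31.8 and 27.1 RPKM, the ratio being 0.851 (0.797 to 0.907). Rnf126, a ligase of the Bag6 quality control pathway for membrane proteins that fail to insert, was at 20.6 and 18.4 RPKM, the ratio being 0.897 (0.817 to 0.986), and Rnf34 was at 14.3 and 12.9 RPKM, the ratio being 0.897 (0.840 to 0.957). Rnf34 shares 627 exon bases with Kdm2b on the opposite strand.

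On the higher side in Tet2-/- were Rnf146, Rnf185 and Rnf144a. Rnf146, a ligase that recognises poly(ADP-ribose), was at 22.8 RPKM for WT and 25.7 for Tet2-/-, a ratio of 1.13 (1.03 to 1.23), and it shares 3129 exon bases with Echdc1 on the opposite strand. Rnf185, a ligase of degradation at the endoplasmic reticulum, was at 7.34 and 8.43 RPKM, the ratio being 1.15 (1.03 to 1.28). Rnf144a, an RBR ligase and the highest by ratio of the RNF genes past 1 RPKM, was at 1.78 and 2.14 RPKM, the ratio being 1.20 (1.013 to 1.42). The lower bounds of all 3 lie close to 1. Rnf44 was at 26.4 and 27.0 RPKM, Rnf121 at 13.5 and 13.5 RPKM, and Rnf135, a cofactor of the viral RNA sensor RIG-I, at 7.53 and 6.63 RPKM, with intervals that held 1.

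Past the filter, the TRIM genes had the highest median fold among the role classes with several members, a rank they did not keep without it. Of 19 TRIM genes, 10 passed 1 RPKM, 7 of them on the higher side in Tet2-/-, beside 1096 of 2107 models. The median log2 fold of the 10 was 0.17. When all 19 TRIM genes entered without the filter, the median was 0.01, below the 0.07 of the 3 Psmd members. Intervals lay above 1 for 4 and below 1 for 1, which is 40.0% and 10.0%, beside 27.0% and 23.5% of all models. Their summed level was 108 in the WT library and 128 RPKM in the Tet2-/- library, and most of that gap came from Trim47. The listed macrophage and monocyte markers lay on the same side, with the summed levels given above, and their part in the TRIM values was not tested.

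Trim47 (chromosome 11, 116105752 to 116127210, mm10) encodes a RING ligase and was at 15.5 RPKM for WT and 28.6 for Tet2-/-. The ratio was 1.85 (1.71 to 2.00) and the log2 fold 0.85, the highest of all members, on an estimated 970 and 1844 fragments. Trim65, its neighbour and a ligase for the viral RNA sensor MDA5, shares 225 exon bases with it on the same strand and was at 10.02 and 11.6 RPKM, the ratio being 1.16 (1.06 to 1.27). The histone gene H3f3b, within 100000 bases of Trim47, was at 442 and 594 RPKM, the ratio being 1.34 (1.32 to 1.37). Trim47 was further from 1 than both of these genes.

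Trim5 (chromosome 7, 104263386 to 104288094) belongs to a family that recognises retroviral capsids and was at 2.53 in the WT library and 4.43 RPKM in the Tet2-/- library. The ratio was 1.75 (1.36 to 2.25) and the log2 fold 0.62, on an estimated 102 and 182 fragments. With a pseudocount of 5 the log2 fold was 0.32, within 1.5-fold. Its transcripts hold a stretch of 2460 bases at 95.04% identity to Trim12c and one of 953 bases at 96.96% identity to Trim12a, neither of which was analysed here, so its value is uncertain. Trim6, the neighbouring TRIM gene, was at 0.682 and 0.776 RPKM with an interval that held 1. Trim5 and Trim25 were the 2 listed genes of a list of 22 interferon-induced members and immunoproteasome subunits. Trim25, which activates RIG-I signalling, was at 10.4 and 11.7 RPKM, the ratio being 1.13 (0.987 to 1.29). The list's median log2 fold, which rests on these 2 genes, was 0.39, and it was 0.22 with a pseudocount of 5 and 0.16 with a minimum mean of 5 RPKM, which Trim25 alone passed.

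Trim24, a chromatin reader and ligase, was at 13.3 RPKM for WT and 16.04 for Tet2-/-, a ratio of 1.20 (1.12 to 1.30). Trim11 was at 16.5 and 14.7 RPKM, the ratio being 0.890 (0.815 to 0.972), and was the TRIM gene whose interval lay below 1. Trim36 had the lowest log2 fold of the class at -0.18, with 1.67 and 1.35 RPKM and an interval that held 1. Trim37, which acts at peroxisomes and centrosomes, was at 20.2 and 20.6 RPKM, Trim8 at 15.01 and 14.7 RPKM, and Trim45 at 3.23 and 3.797 RPKM, each with an interval that held 1. Within the class the higher members were therefore Trim47, Trim5, Trim24 and Trim65, and the others did not separate from 1 or were lower.

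Of the cullin ligases, the scaffold gene Cul4a was at 26.7 in the WT library and 28.0 RPKM in the Tet2-/- library, with an interval that held 1. Of 9 F-box genes 3 passed 1 RPKM. Fbxl21 (chromosome 13, 56522472 to 56537898), which encodes an F-box protein that targets the circadian cryptochromes, was at 10.3 RPKM for WT and 6.01 for Tet2-/-. WT over Tet2-/- was 1.71 (1.35 to 2.15) and the log2 fold -0.68, the lowest of the members past the filter, on an estimated 200 and 119 fragments. With a pseudocount of 5 the log2 fold was -0.47, within 1.5-fold. Its one listed neighbour within 100000 bases, Slc25a48, was listed at 0.01 in both. Fbxo3 was at 24.0 and 23.6 RPKM and Fbxo34 at 10.4 and 10.8 RPKM, both with intervals that held 1. The F-box genes thus did not move as a group.

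The ubiquitin-specific proteases lay mostly on the lower side in Tet2-/-, by small amounts. Of 11 USP genes 8 passed 1 RPKM, and 6 of these were lower and 2 higher, beside 1011 lower and 1096 higher of 2107 models. The median log2 fold of the 8 was -0.10. One of the 2 higher genes, Usp6nl, encodes no protease. Intervals lay below 1 for 5 and above 1 for 1, which is 62.5% and 12.5%, beside 23.5% and 27.0% of all models. These shares were not matched for the number of fragments, and the intervals below 1 include that of Usp8, whose ratio was 0.945. All 8 lay within 1.25-fold, as did 79.4% of all models and 82.7% of the protein-coding models given above. The summed level of the 8 was 210 in the WT library and 191 RPKM in the Tet2-/- library. That is a ratio of 0.912, beside 1.09 for the sum of all models past the filter.

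Usp48 was the most abundant, at 61.9 RPKM for WT and 55.2 for Tet2-/-, a ratio of 0.892 (0.868 to 0.917). Usp19, which has a form anchored in the endoplasmic reticulum, was at 56.2 and 51.6 RPKM, the ratio being 0.917 (0.888 to 0.948). Usp3, which takes ubiquitin off histones, was the lowest in fold of those past 1 RPKM, at 33.8 and 27.9 RPKM, the ratio being 0.824 (0.769 to 0.882). Usp8, which acts on receptors sorted at endosomes, was at 25.2 and 23.8 RPKM, the ratio being 0.945 (0.899 to 0.994). Usp30, the protease of the mitochondrial outer membrane that opposes mitophagy, was at 6.52 and 5.90 RPKM, the ratio being 0.905 (0.822 to 0.995). The upper bounds of Usp8 and Usp30 lie close to 1. Usp11 was at 13.4 and 12.5 RPKM with an interval that held 1. Usp33 was the one whose interval lay above 1, at 10.6 and 12.2 RPKM, the ratio being 1.14 (1.06 to 1.24). Usp6nl, which encodes a GTPase-activating protein for Rab proteins despite its symbol, was at 2.04 and 2.24 RPKM with an interval that held 1. No OTU gene was among the listed symbols.

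**Figure D3:**
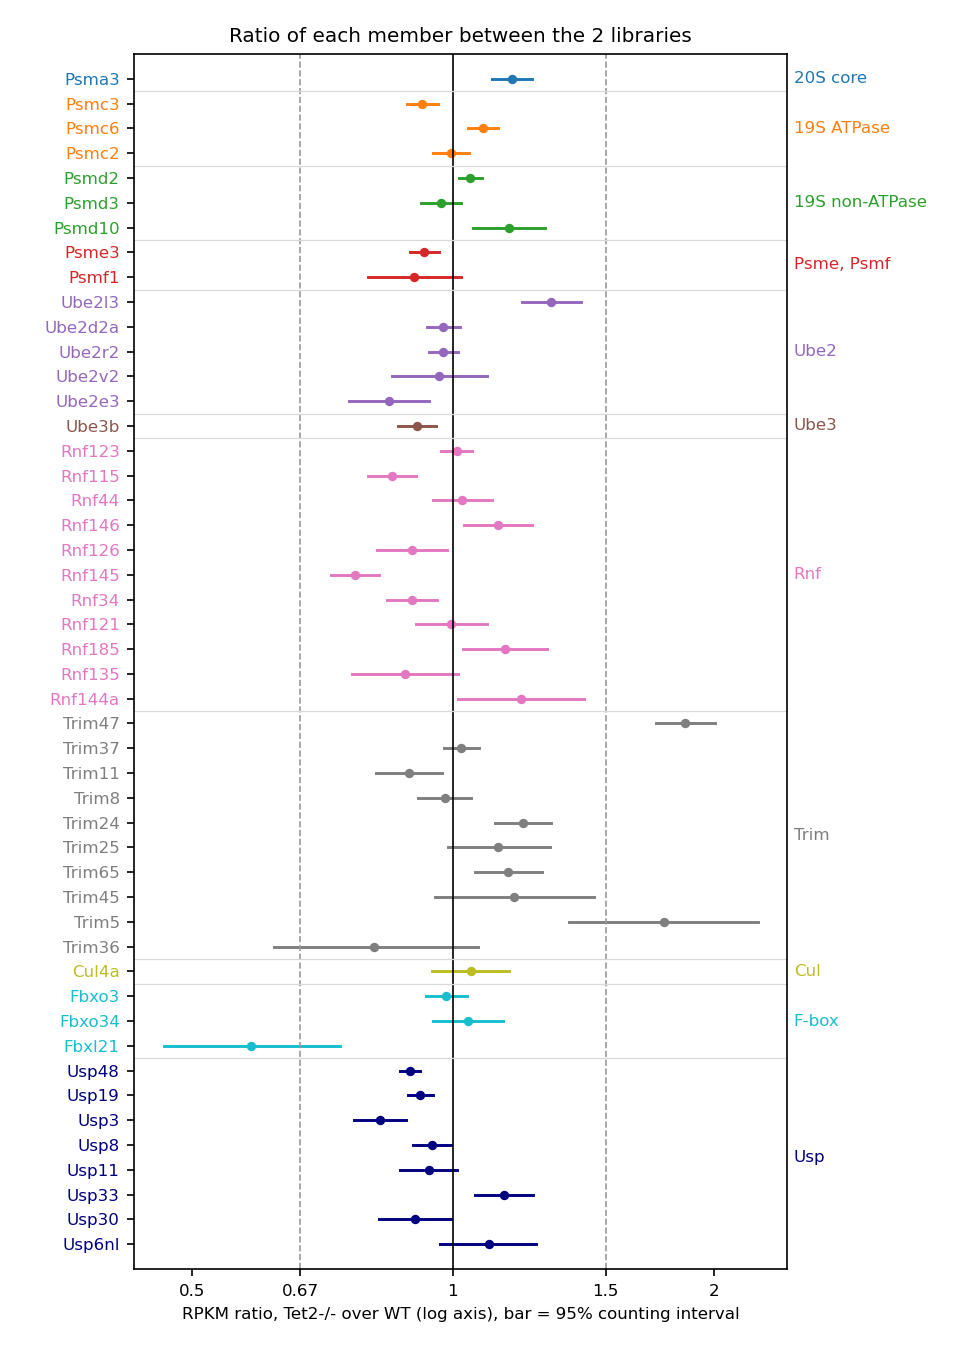
Ratio of RPKM, Tet2-/- over WT (x axis, log axis), of 48 of the 49 members with a mean of at least 1 RPKM. Points are ratios, bars are 95% counting intervals, and dashed lines mark ratios of 1.5 either way. Trim47 at 1.85 and Trim5 at 1.75 lie to the right of the dashed lines and Fbxl21 to the left, and 5 of 8 USP intervals lie below 1.

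Grouped by process instead of family, the members gave few genes per list. Of 17 genes of degradation at the endoplasmic reticulum 4 were listed, Usp19, Rnf145, Rnf121 and Rnf185, with a median log2 fold of -0.06. Of these 4 genes, 1 had an interval above 1 and 2 below 1, beside 27.0% and 23.5% of all models. Of 23 genes that place or remove ubiquitin on chromatin 2 were listed, Usp3 on the lower side and Trim24 on the higher. The lists of 11 cell cycle members and of 6 members for ubiquitin-like proteins had 0 listed genes.

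The rest of the ubiquitin pathway was taken from a list of 136 genes outside the members, of which 25 were listed and all 25 passed 1 RPKM. None reached 1.5-fold in either direction, beside 5.84% of all models that were higher and 3.61% that were lower. The median log2 fold was 0.06. Of the 25 intervals, 11 lay above 1 and 4 below 1, beside 27.0% and 23.5% of all models. These shares were not matched for the number of fragments. Ubiquitin itself is encoded in part by Rps27a, fused to a ribosomal protein, and by Ubb, as a chain of repeats. Rps27a was at 897 in the WT library and 1123 RPKM in the Tet2-/- library, a ratio of 1.25 (1.22 to 1.28), and Ubb at 472 and 525 RPKM, the ratio being 1.11 (1.09 to 1.14). Uba1, the main E1 enzyme, was at 105 and 104 RPKM with an interval that held 1.

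Sqstm1, the autophagy receptor for ubiquitylated cargo, was at 377 RPKM for WT and 393 for Tet2-/-, a ratio of 1.04 (1.02 to 1.07). Sumo2, a ubiquitin-like modifier, was at 260 and 259 RPKM, and Anapc5, a subunit of the anaphase-promoting ligase, at 98.4 and 97.7 RPKM, both with intervals that held 1. The widest ratio of the list, a gene chosen after its value was seen, was that of Anapc11, the RING subunit of the same ligase, at 62.7 and 85.2 RPKM, the ratio being 1.36 (1.27 to 1.45). The entry enzyme of the pathway was thus level between the libraries, and both ubiquitin genes were on the higher side in Tet2-/-.

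**Figure D4:**
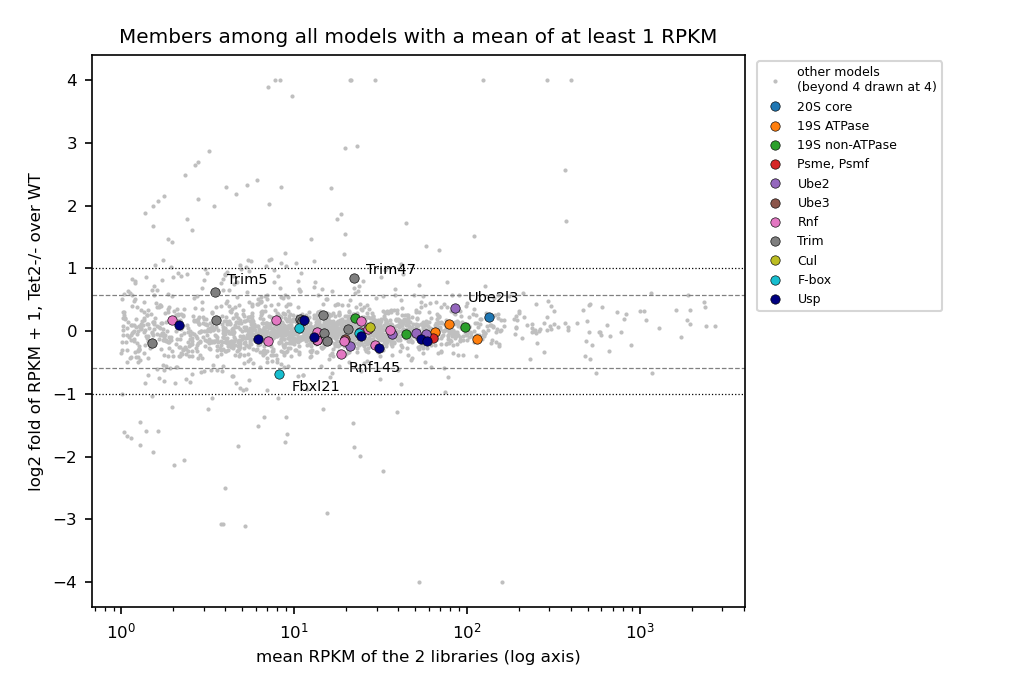
Log2 fold of RPKM + 1, Tet2-/- over WT (y axis), by mean RPKM of the 2 libraries (x axis, log axis), for 49 members (coloured by role) among 2107 models (grey). Dashed lines mark 1.5-fold and dotted lines 2-fold. No member reaches a dotted line, and Trim47, Trim5 and Fbxl21 cross a dashed one.

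The 28 members below 1 RPKM include 12 listed at 0.01 in both libraries and 16 with a value in at least 1. Those at 0.01 in both are Fbxo15, Fbxw18, Fbxw27, Psmb6-ps2, Rnf112, Rnf183, Rnf186, Rnf212, Trim31, Trim40, Trim54 and Usp43. Several are known from other tissues, such as Trim54 from striated muscle, Rnf212 from meiosis and Fbxo15 from embryonic stem cells. Of the others, Usp53 was at 0.901 in the WT library and 0.495 RPKM in the Tet2-/- library, with WT over Tet2-/- at 1.82 (1.28 to 2.58) on an estimated 95 and 54 fragments. Usp53 and Psma8 were the members below the filter whose intervals lay beyond 1, and both were lower in Tet2-/-. Rnf208 was at 0.724 and 0.988 RPKM, Fbxo10 at 0.336 and 0.364 RPKM, Fbxo47 at 0.273 and 0.187 RPKM, Fbxl16 at 0.184 and 0.0757 RPKM, and Rnf224 at 0.174 and 0.0848 RPKM, all with intervals that held 1.

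Usp29, Trim66, Rnf151 and Trim67 were at most 0.0810 RPKM in either library. Trim9, Trim72 and Trim75 had 0.01 for WT, and for Tet2-/- they had 0.0147, 0.0413 and 0.0134 RPKM, on 1 or 2 estimated fragments. No difference can be read at this depth for these 7 genes. The members next to the filter were Psma8, with a mean of 0.883 RPKM, just below it, and Trim36, with a mean of 1.51 RPKM, just above it.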

How the data were processed

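Mast cell RNA was made into 1 TruSeq library per genotype, per the labels' protocols, which do not say whether strand was kept. It is therefore unknown whether reads of overlapping genes on opposite strands were told apart. The authors deposited RPKM values for 8139 symbols, per the file headers, and named the build mm10 in the submitters' processing notes. For the aligner, counter and gene models, the program or version is not given in the sources used here. The value 0.01 stood for 58.1% of symbols of WT and 57.4% of Tet2-/- values, and its reading as a substitute for no reads is uncertain.

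Members were matched to GENCODE M21 (mm10), 77 of 77. Log2 folds used a pseudocount of 1 RPKM and genes averaging 1 RPKM or more, and understate the change of low genes. In place of a test, a fixed size of 2-fold, or 1.5-fold, was used. Depth was recovered from genes with a single transcript, where 95.1% of 389 values in WT and 95.7% of 415 in Tet2-/- came within 0.1 of a whole fragment (chance 20%). These depths are inferred. With them, 1 RPKM in 2 kb stands for 62 and 64 fragments. Intervals are exact 95% Clopper-Pearson intervals of the share of fragments in 1 library, using the shortest basic transcript, and cover counting error only. Close copies were sought with blastn 2.17.0 (at least 150 bases at 95% identity). Promoter sequences are from RefSeq. Protein sequences were not used here.

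The members, role classes and lists were chosen with earlier results of these data known. Every member past 1 RPKM could be named, and 1 of the 49 enters the counts but is not reported singly here. Always named were members at 1.5-fold, the most abundant member and those of the highest and lowest fold in each class, and, of the pathway list, genes at 1.5-fold and the 6 most abundant. The calculations were tested on simulated data. The work used scipy 1.17.1, numpy 2.4.6 and pandas 2.3.3 under Python 3.11.15, with figures drawn in matplotlib 3.10.9. Alternatives were other pseudocounts, filters, a median-ratio scaling, protein-coding genes alone and, for the intervals, the longest transcript.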

Additional observations from a re-analysis of the deposited data

How the results depend on the processing

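No paired analysis was possible because there is a single library of either genotype, and none could be left out. The count of 0 members higher by 2-fold held under every alternative tried, and that of 0 lower became 1, Psma8, with no filter. The count higher by 1.5-fold, 2 at first, was 1 with a pseudocount of 5, 1 with the filter raised to a mean of 5 RPKM, and 0 when members with shared exon bases or a close copy were left out, an alternative chosen after seeing the data that removed 24 of the 49 members, Trim47 and Trim5 among them. The count lower by 1.5-fold, 1 at first, was 0 with a pseudocount of 5 and 2 with no filter. Of 93 alternative list and class medians 2 changed by more than the median counting error of their members, both with no filter: the 20S core to 0 and the TRIM family to 0.0066. The median of the interferon-induced list, 0.39 at first, was 0.22 with a pseudocount of 5 and 0.16 with the filter raised to 5 RPKM. Of 150 alternative log2 folds of 50 members past the filter or named beside it, 0 changed direction. A pseudocount of 5 brought Trim47 to 0.72, the one change beyond the counting error of the member itself, and the larger changes of lower members were Trim5 to 0.32 and Fbxl21 to -0.47, which ended their calls, and Psma8 to -0.31. Psma8 was at -2.22 with a pseudocount of 0.1. The median-ratio scaling shifted each log2 ratio by 0.0098. Depth limits the members below 1 RPKM, where 3 fragments in 2 kb stand for 0.0484 RPKM.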
